A study of Homo sapiens with 2 samples.

Results

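The 9 genes described here encode immune checkpoint ligands and ligands of natural killer (NK) cells that a tumour cell can carry on its surface. They were CD274, PDCD1LG2, CD276, CD47, NT5E, PVR, MICA, MICB and ULBP2, taken by symbol from 24462 gene symbols counted in each library. All 9 were found. RNA was compared between MDA-MB-231, an established human triple negative breast cancer line, and RT-R-MDA-MB-231, a radiotherapy-resistant line made from it by X-ray doses of 2 Gy repeated to a final 50 Gy. Both lines grew in the same medium with 10% serum, with 1 library each from 500 ng of total RNA, made with a kit that reads a tag near the 3′ end of polyadenylated transcripts. Whether the irradiated line is a clone or a mixed population is not given in the sources used here.

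PD-L1 (CD274) and PD-L2 (PDCD1LG2) bind the receptor PD-1 on T cells and dampen their activity, and B7-H3 (CD276) belongs to the same B7 family. CD47 binds SIRPα on macrophages and holds back engulfment, while the nucleotidase CD73 (NT5E) makes adenosine, which quiets lymphocytes, outside the cell. PVR (CD155) engages TIGIT, CD96 and DNAM-1 on T and NK cells, and MICA, MICB and ULBP2 are stress-induced ligands of the activating receptor NKG2D.

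The parental library held 9255008 counts and the RT-R library 10014804, and 12644 genes had at least 20 counts in a library and are called measured. Levels are given as counts per 1000000 (CPM), with library sizes scaled by TMM, a trimmed mean of the ratios over genes. A gene was called higher or lower at 2-fold or more with a 95% interval on one side of 1. These intervals cover counting error only. With 1 library per line there is no replicate check and no test, and PCR copies of a molecule may be counted repeatedly. Fewer cells with a transcript and less of it per cell cannot be told apart in bulk RNA. Of 8 line markers, VIM had 4310 and 8454 counts, CD44 2560 and 3129, KRT18 2525 and 2816, and KRT8 590 and 578. ESR1 had 0 and 1 counts, PGR 0 in both, and EPCAM 15 and 26. ERBB2 had 230 and 174, so its RNA was present in both lines. Of 12 leukocyte markers, 9 had at most 3 counts in both libraries, PTPRC, CD3E and NKG7 had 0, and the list summed to 36 parental and 48 RT-R counts, mostly from CD14 (14 and 39) and CSF1R (18 and 3). The fibroblast and endothelial markers summed to 335 and 160 counts, of which PECAM1 held 223 and 50.

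None of the 9 genes was called in either direction. Over all measured genes, 6.89% were called higher and 3.97% lower. Short of that limit, CD274, CD47, NT5E, MICA and MICB were lower in RT-R by 1.27- to 1.68-fold with intervals below equal expression. CD276 and PVR were higher by 1.14- and 1.10-fold with intervals above it, and the intervals of PDCD1LG2 and ULBP2 held equal expression. With scaling by total counts or by the upper quartile the interval of ULBP2 lay above 1, which makes 3 genes on that side. Intervals lay below 1 for 30.4% of all measured genes and above 1 for 27.7%, so 5 and 2 of 9 are to be read against those shares. For 6 of the 9 genes the interval excluded a 2-fold difference, and for CD274, PDCD1LG2 and ULBP2 it did not.

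The sequences before the start sites of CD274, MICA and MICB are shown because CD274 had the lowest ratio of the 9 and because MICA and MICB, close relatives on chromosome 6, had like ratios. Each is the 250 bases upstream of the annotated start, 5′ to 3′ on the + strand, from a RefSeq promoter table on GRCh38.p14, in which 8 of the 9 genes were matched. Capitals in CD274 mark matches to the interferon-type motifs TTCNNNGAA and GAAANNGAA, and capitals in MICA and MICB mark the heat shock type motif GAANNTTC.
CD274, chr9:5450292-5450541: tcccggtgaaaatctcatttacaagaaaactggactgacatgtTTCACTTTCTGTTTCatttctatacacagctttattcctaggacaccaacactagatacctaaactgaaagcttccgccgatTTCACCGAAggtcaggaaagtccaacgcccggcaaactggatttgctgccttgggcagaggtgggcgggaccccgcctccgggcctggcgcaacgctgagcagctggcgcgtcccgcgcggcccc
MICA, chr6:31403345-31403594: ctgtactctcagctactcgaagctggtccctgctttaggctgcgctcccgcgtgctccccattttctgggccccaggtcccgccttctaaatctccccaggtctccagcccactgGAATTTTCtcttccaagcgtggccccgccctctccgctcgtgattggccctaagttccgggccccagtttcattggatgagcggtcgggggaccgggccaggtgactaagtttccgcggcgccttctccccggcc
MICB, chr6:31497895-31498144: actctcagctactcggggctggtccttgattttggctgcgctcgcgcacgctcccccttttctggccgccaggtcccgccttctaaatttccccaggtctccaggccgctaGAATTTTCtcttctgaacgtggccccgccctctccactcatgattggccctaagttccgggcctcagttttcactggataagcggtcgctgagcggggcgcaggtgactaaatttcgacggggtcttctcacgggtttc
The MICA and MICB sequences were identical at 210 of 254 aligned positions (82.7%). By the same alignment, which allows gaps, MICA and CD274 were identical at 153 of 291 (52.6%). The motif GAANNTTC occurred as GAATTTTC in both, from base 135 to 128 before the start in MICA and from base 139 to 132 in MICB, and in 5.78% of 35116 promoters of this length. In CD274, TTCNNNGAA matched once, and 6.57% of all promoters held it. GAAANNGAA matched CD274 on the other strand in overlapping copies, from base 207 to 199 and from base 201 to 193, and 6.88% of all promoters held it. In all, 10 motifs were searched on both strands in the 8 genes, with CD276 counted by either of its 2 listed starts. The SP1 box GGGCGG was in 7 of them against 42.6% of all promoters. The NF-kB form GGNNTTTCC was in CD274 and CD276 against 5.49%, and the form GGAANNCCC in CD276 alone against 5.78%. No match was found for the other heat shock form TTCNNGAA, the E-box CACGTG, the AP-1 motif TGACTCA or the E2F motif TTTCGCGC. A match says only that these letters are present.

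**Figure D1:**
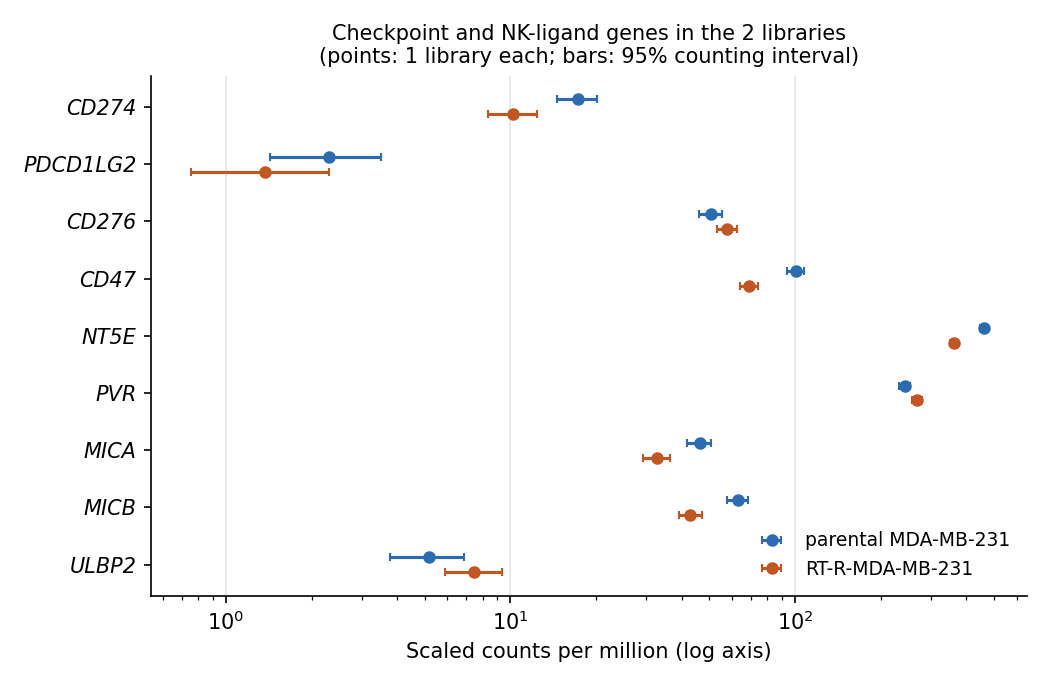
Level of each gene in the parental (blue) and RT-R (orange) library, in scaled CPM on a log axis, with 1 library per point and bars for the 95% counting interval. NT5E is highest in both libraries, at 461 and 363 CPM, and PDCD1LG2 lowest, at 2.30 and 1.38 CPM.

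The 3′ tag levels of the 9 genes spanned a wide range. The kit reads tags near transcript ends, so CPM was not divided by length. NT5E lay above 97.1% of measured genes in mean CPM, PVR above 94.5% and CD47 above 80.2%, whereas ULBP2 lay above 19.4% and PDCD1LG2 above 2.24%. In the parental library the CPM order was NT5E, PVR, CD47, MICB, CD276, MICA, CD274, ULBP2 and PDCD1LG2. The counting intervals of CD276 (46.2 to 55.5 CPM) and MICA (41.9 to 50.8 CPM) overlapped there. In RT-R the order was the same except that CD276 (57.7 CPM) stood above MICB (42.9 CPM), and the adjacent levels of CD274 (8.36 to 12.4 CPM) and ULBP2 (5.89 to 9.36 CPM) overlapped.

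Of the PD-1 ligands, CD274 was lower in RT-R and PDCD1LG2 was scarce in both lines. CD274 had 157 parental counts (17.2 CPM) and 104 RT-R counts (10.2 CPM), 1.68-fold lower (1.31 to 2.18). Its log2 ratio of -0.75 was the lowest of the 9, and 7.92% of measured genes had a lower one. It passed a 1.5-fold limit with its interval, as did 11.9% of all measured genes in that direction and 13.7% in the other, and the other 8 genes did not. PDCD1LG2 had 21 and 14 counts, or 2.30 and 1.38 CPM, and counted as measured through the parental library alone. Its value of 1.67-fold lower had an interval from 0.81 to 3.56, so a difference was not detectable at this depth. CD274 held 7.48 counts per PDCD1LG2 count in the parental library and 7.43 in RT-R, and the interval of the ratio of those ratios, 0.46 to 2.21, is wide.

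The other B7 molecule, CD276, did not share the lower value of CD274. CD276 had 462 counts (50.7 CPM) in parental cells and 587 (57.7 CPM) in RT-R, 1.14-fold higher (1.01 to 1.29). Per count of CD274 there were 2.94 counts of CD276 in parental cells and 5.64 in RT-R, a 1.92-fold difference (1.44 to 2.56) in which library scaling cancels. This and the other comparisons of gene pairs below were chosen after the values were seen.

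Genes that govern PD-L1 had a list median above 0. Of 28 regulators, all measured, 1 was called higher and 0 lower, beside 6.89% and 3.97% of all measured genes. The median was 0.12 on the log2 scale, beside -0.01 over all measured genes and -0.50 over the 9 genes. B3GNT3, a glycosyltransferase that modifies PD-L1, was the called gene, with 11 and 58 counts, 4.73-fold higher (2.46 to 9.99). It counted as measured through the RT-R library alone. IRF1, the interferon-induced factor that activates CD274, had 503 and 812 counts, 1.45-fold higher (1.29 to 1.62). The kinase gene JAK2, on chromosome 9 like CD274, had 80 and 84 counts with a ratio of 0.94 (0.68 to 1.30). CMTM6, which keeps PD-L1 from degradation, was 1.31-fold lower (1.25 to 1.37), with 3789 and 3228 counts. Its chromosomal neighbours on chromosome 3 were lower too, with a median log2 ratio of -0.35 beside -0.39 for CMTM6. Counts of CD274 per count of CMTM6 were 0.041 and 0.032, and the interval of their ratio, 0.60 to 1.01, held equality.

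**Figure D2:**
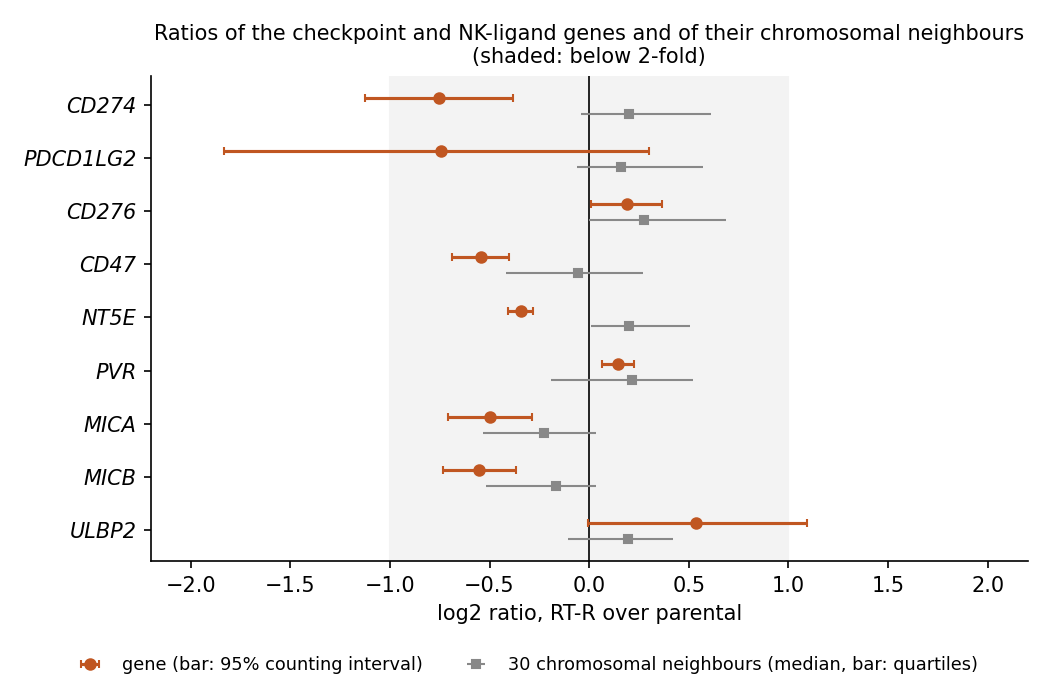
Log2 ratio of RT-R over parental for each gene (orange, bar: 95% counting interval) and the median of its 30 measured chromosomal neighbours (grey, bar: quartiles), with ratios short of 2-fold shaded. CD274, PDCD1LG2, CD47, NT5E and MICB lie below the quartile range of their neighbours, ULBP2 lies above it, and CD276, PVR and MICA lie within it.

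CD47 was lower in RT-R at a moderate level. Its counts were 916 (100.5 CPM) and 700 (68.8 CPM), 1.46-fold lower (1.32 to 1.61), with a log2 ratio of -0.55. The counting intervals of the 2 levels did not overlap. CD47 lies between BBX (-0.45) and IFT57 (-0.78) on chromosome 3, and both of these flanking genes were also lower. The 15 measured genes before it had a median of -0.18 and the 15 after it 0.19, and 6 of its 30 neighbours lay below it. Their part in the CD47 value was not tested.

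In the CD47 list of 11 genes, 10 were measured, with a median log2 ratio of -0.19. Calls were 1 higher and 2 lower, beside 6.89% and 3.97% of all measured genes. QPCT, a glutaminyl cyclase, fell from 70 to 34 counts, 2.30-fold (1.504 to 3.57). Its relative QPCTL, which modifies CD47 so that SIRPα can bind, had 78 and 102 counts with a ratio of 1.17 (0.86 to 1.60). SIRPA, the receptor itself, fell from 32 to 17 counts, 2.10-fold (1.13 to 4.03), at low depth. It counted as measured through the parental library alone. THBS1, a secreted ligand of CD47, had 638 and 457 counts, 1.56-fold lower (1.38 to 1.76). CD24, another surface signal against engulfment, had 85 and 271 counts and rose 2.86-fold (2.23 to 3.69). It has close copies, so its count is uncertain.

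NT5E was the most abundant of the 9 genes in both libraries. It had 4202 counts (460.9 CPM) in parental cells and 3691 (363.03 CPM) in RT-R, 1.27-fold lower (1.21 to 1.33). The difference is small but well outside counting error, and 24.97% of measured genes had a lower ratio. Of its 30 neighbours on chromosome 6, 26 lay above it, and their median log2 ratio was 0.20.

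Enzymes and receptors around CD73 had ratios in both directions. Of 16 genes of adenosine handling, 9 were measured, and their median log2 ratio was 0.32. Calls were 2 higher and 1 lower, beside 6.89% and 3.97% of all measured genes. ENPP1, a surface enzyme that yields the AMP used by CD73, fell from 634 to 311 counts, 2.27-fold (1.98 to 2.61). ENTPD1 (CD39), which makes AMP from ATP, had 100 and 161 counts and a ratio of 1.44 (1.12 to 1.87). Counts of NT5E per count of ENTPD1 were 42.02 in parental cells and 22.9 in RT-R, a 1.83-fold difference (1.41 to 2.39). ADA, which removes adenosine, rose 2.21-fold (1.45 to 3.45), with 32 and 79 counts. The receptor gene ADORA1 rose 3.29-fold (1.29 to 9.91), with 6 and 22, and counted as measured through the RT-R library alone. ADORA2B, an adenosine receptor of epithelial cells, had 315 and 439 counts with a ratio of 1.25 (1.08 to 1.45), and ADORA2A had 0 in both.

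PVR and its relative NECTIN2, which share the receptors TIGIT and DNAM-1, differed in direction. PVR had 2212 counts (242.6 CPM) and 2725 (268.02 CPM), 1.10-fold higher in RT-R (1.04 to 1.17). NECTIN2 had 1486 and 1269 counts, 1.31-fold lower (1.21 to 1.41), on the same chromosome. PVR per NECTIN2 was 1.49 in parental cells and 2.15 in RT-R, a 1.44-fold difference (1.31 to 1.59). PVR overlaps CEACAM19 on the same strand in the GENCODE v29 annotation, which had 44 and 76 counts, few beside those of PVR.

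Among 24 other B7, nectin and checkpoint ligands, 13 were measured, with a median log2 ratio of -0.44. Calls were 2 higher and 0 lower, beside 6.89% and 3.97% of all measured genes. Intervals lay below 1 for 9 of the 13 and above 1 for 2, beside 30.4% and 27.7% of all measured genes. Against their chromosomal neighbours, BTN3A1 and BTN3A2 of these 9 stood at 0.12 and 0.02, and the rest lay lower than their neighbours. LGALS9 (galectin-9, a ligand of TIM-3), which has close copies, rose 3.86-fold (2.35 to 6.62) from 20 to 86 counts. TNFSF9, the ligand of the costimulatory receptor 4-1BB, rose from 56 to 135 counts, 2.16-fold (1.57 to 3.01). Each of CD80, CD86, VTCN1 and NECTIN4 had 0 counts in both libraries, where a count of 0 allows up to 0.33 CPM in the parental and 0.30 CPM in RT-R.

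**Figure D3:**
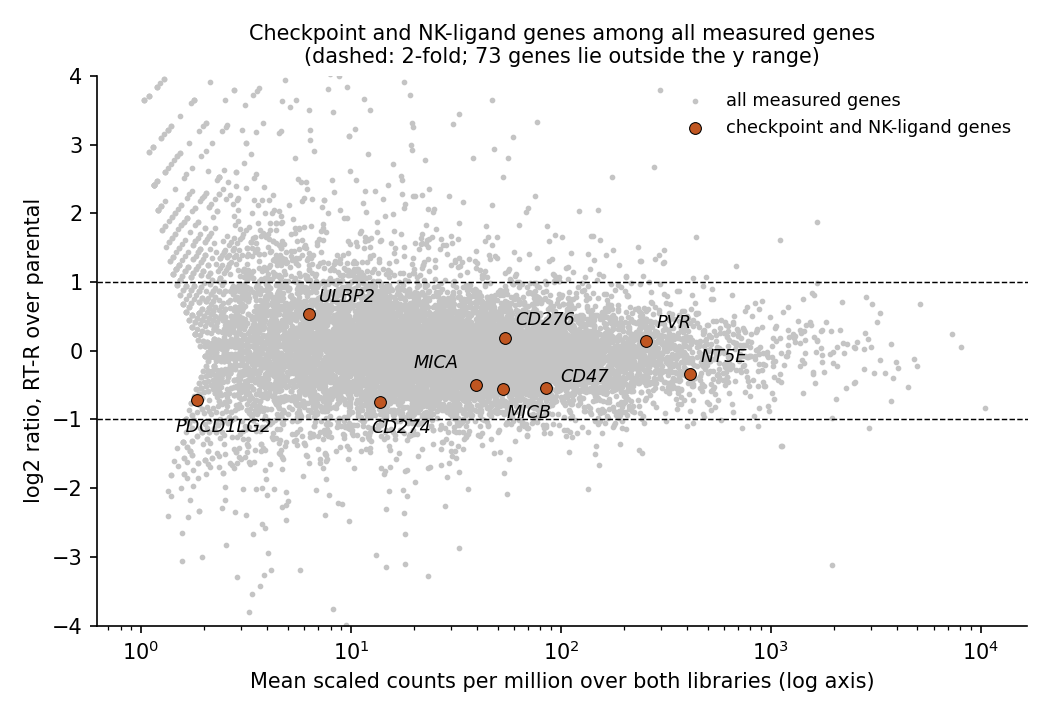
Log2 ratio of RT-R over parental against mean scaled CPM (log axis) for all 12644 measured genes (grey) and the 9 genes (orange), with dashed lines at 2-fold and 73 genes outside the vertical range. The 9 genes lie between -0.75 and 0.53, inside the lines.

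The NKG2D ligands MICA and MICB were lower in RT-R by nearly the same factor. MICA had 421 counts (46.2 CPM) in parental cells and 333 (32.8 CPM) in RT-R, 1.41-fold lower (1.22 to 1.63). MICB had 573 (62.9 CPM) and 436 (42.9 CPM), 1.47-fold lower (1.29 to 1.66). MICA per MICB was 0.73 and 0.76, and the interval of the ratio of those values, 0.86 to 1.26, held equality. The files list MICA on 5 rows and MICB on 8, with counts on 1 row each. Of 251 windows of 50 bases in the last 300 bases of each gene's longest GENCODE v29 transcript, 0 occurred exactly in another gene, for MICA and for MICB. Reads with mismatches, and the alleles of this line, were not examined. HCP5 overlaps MICA on the same strand in that annotation and had 34 and 39 counts. The medians over the neighbours of MICA and MICB were -0.23 and -0.17 on the log2 scale, and 20 of 30 and 26 of 30 neighbours lay above them. The genes that flank MICA directly were not lower, with 0.28 for HLA-B, which shares sequence with other HLA genes, and 0.04 for HCP5, while MICB lies between HCP5 and MCCD1 (-0.28). MICA and MICB are each other's neighbours in this measure.

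ULBP2 pointed the other way at low depth. It had 47 counts (5.16 CPM) and 76 (7.48 CPM), a ratio of 1.45 with an interval from 0.99 to 2.13. Whether equal expression lay inside turned with the scaling, since the lower end was 1.03 with total counts and 1.02 with the upper quartile. MICB per ULBP2 was 12.2 in parental cells and 5.74 in RT-R, a 2.12-fold difference (1.42 to 3.19). MICA per ULBP2 was 8.96 and 4.38, a 2.04-fold difference (1.36 to 3.09). The last 300 bases of ULBP2 share 11 of 251 windows with its relative RAET1L, which had 1 count in each library. Scaled by its neighbours, whose median log2 ratio was 0.19, ULBP2 stood at 0.34.

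Summed over 8 NKG2D ligand genes, the counts were 1081 in parental cells and 893 in RT-R, 1.35-fold lower (1.23 to 1.48). MICA and MICB held 91.95% of that sum in parental cells and 86.1% in RT-R, and ULBP2 4.35% and 8.51%. ULBP1 and ULBP3 had 0 counts in both libraries, so any level was below what a count of 0 allows. A transcript whose end is annotated elsewhere can be missed by tag counting.

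Among 17 other NK cell ligands, 10 were measured, with a median log2 ratio of 0.10. Calls were 0 higher and 1 lower, beside 6.89% and 3.97% of all measured genes. ICAM3, an adhesion ligand of the integrin LFA-1, fell from 96 to 46 counts, 2.33-fold (1.62 to 3.38). Its relatives in the list did not share this value. ICAM1 had 189 and 275 counts with a ratio of 1.30 (1.08 to 1.58), and ICAM2 112 and 117 with 0.94 (0.72 to 1.22). CLEC2B, the ligand of the NK receptor NKp80, had 70 and 155 counts and a ratio of 1.99 (1.49 to 2.67), and it passed the 2-fold limit when libraries were scaled by total counts or by the upper quartile.

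Genes that induce or shed NKG2D ligands were also set beside them. Of 15 genes, all measured, 1 was called higher and 1 lower, beside 6.89% and 3.97% of all measured genes. Their median log2 ratio was 0.17. ADAM17, a sheddase that releases MICA and MICB from the surface, had 263 and 532 counts, 1.81-fold higher (1.56 to 2.11) and short of the limit. ADAM10, another such sheddase, had 465 and 546 counts with a ratio of 1.05 (0.93 to 1.19). MMP9, a secreted protease, rose from 9 to 48 counts, 4.78-fold (2.32 to 11.1), and counted as measured through the RT-R library alone. TIMP3, an inhibitor of ADAM17, fell from 2393 to 1319 counts, 2.02-fold (1.89 to 2.17), which dropped just under the limit with scaling by total counts or by the upper quartile. MMP14, another protease of the list, had 907 and 593 counts, 1.71-fold lower (1.54 to 1.90) and short of the limit. E2F1 had 1615 and 1014, 1.78-fold lower (1.64 to 1.92), also short of it. Over the 15 genes, intervals lay above 1 for 6 and below 1 for 3, beside 27.7% and 30.4% of all measured genes.

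**Figure D4:**
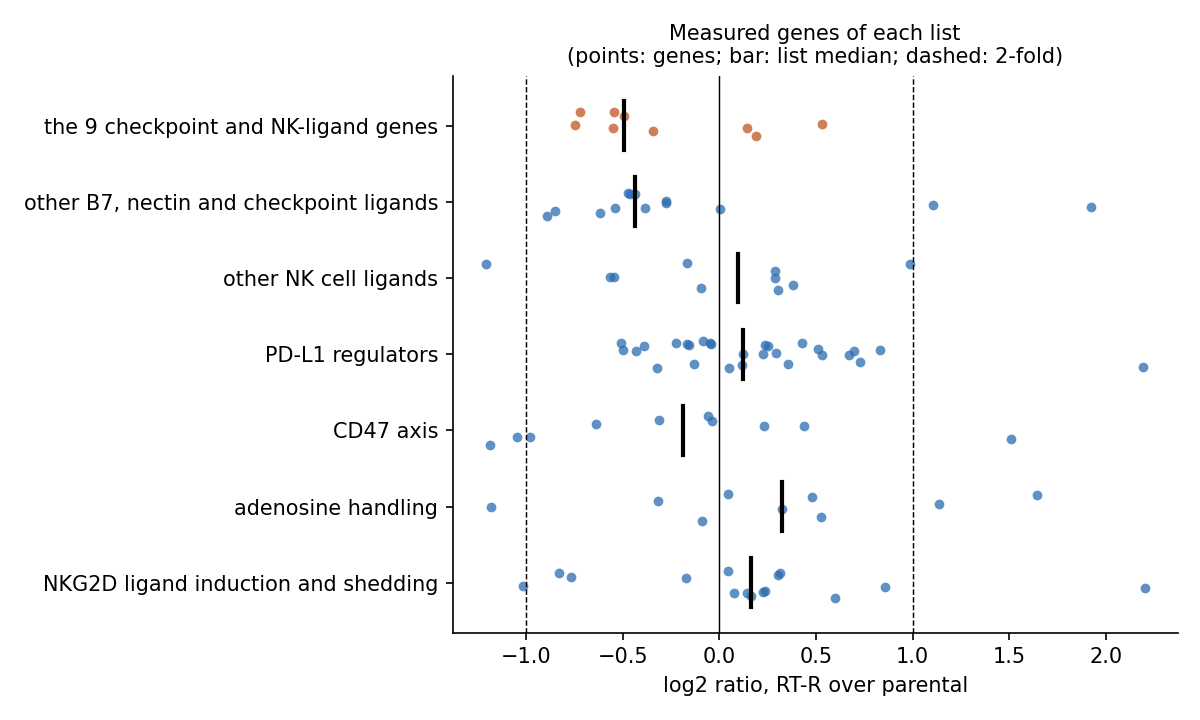
Log2 ratio of RT-R over parental for the measured genes of each list (points), with the list median (black bar) and dashed lines at 2-fold. The median is -0.50 for the 9 genes and -0.44 for the other B7, nectin and checkpoint ligands, and 0.12 for the PD-L1 regulators.

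Of 12 listed immune receptor and adaptor genes, 8 had at most 3 counts in both libraries. The list also holds CTLA4, CD28, LAG3 and HAVCR2, which are not receptors of the 9 genes. SIRPA, the receptor of CD47, was measured, with 32 and 17 counts. PDCD1 had 0 and 1 counts, CD226 (DNAM-1) 0 and 1, and TIGIT 0 in both. KLRK1, which encodes NKG2D, had 27 and 59 counts, a ratio of 1.96 (1.22 to 3.21), while HCST, the adaptor it signals through, had 0 and 6.

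Set against the median of their chromosomal neighbours, 8 of the 9 genes lay lower and 1, ULBP2, higher. The share of all measured genes that lay below their neighbours was not counted, so 8 of 9 has no background here. CD276, PVR and MICA lay within the quartiles of their neighbours. CD274 stood at -0.95 against the median of its neighbours on the log2 scale and had 29 of 30 above it. PDCD1LG2, next to it on chromosome 9, had 27 of 30 above it, with each of these genes counted among the neighbours of the other. CD276 and PVR changed sign in this measure, to -0.09 and -0.07, since genes around them were higher in RT-R. The median of the 9 differences was -0.38.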

How the data were processed

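Libraries were made with a Lexogen QuantSeq kit, per the labels' protocols. The values the authors deposited are raw counts per gene symbol, not normalized. The submitters' processing notes list bcl2fastq 2.20.0.422, Bowtie2, bedtools and hg19. The sources used here do not give the annotation, the use of strand or the handling of multi-mapped reads.

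Rows with the same symbol were summed. TMM scaling came from edgeR 4.0.16 (R 4.3.3), used for nothing else, and set the RT-R size at 1.12 times the parental. Log2 ratios used a pseudocount of 0.5. Fold ratios carry exact conditional (Clopper-Pearson) 95% intervals from scipy 1.17.1, levels exact Poisson intervals, and gene pairs exact conditional odds ratio intervals. A call needed 20 counts in either library and 2-fold on the log2 scale, with the interval excluding 1. A 0 was read as allowing 3 counts. Calculations were tested on simulated libraries that held counting error alone, as the intervals assume. Spread between cultures and PCR copies were not simulated, so this checks the arithmetic and not the calls.

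For neighbours, 15 measured genes were taken on both sides in the RefSeq order of GRCh38.p14, which placed 98.6% of measured genes. Since hg19 was used for counting, coordinates are given for RefSeq promoters alone. Older symbols were matched by synonym.

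The members and lists were chosen with earlier results of these data known. Named genes are the 9 members, partners listed by name, and up to 2 highest and 2 lowest called genes per list by the interval bound nearest to 1, and others were chosen after their values were seen. A gene that the rule names is not reported here. Likeness of pattern cannot be measured over 2 libraries. Alternatives were scaling by total counts, median of ratios (DESeq2 1.42.0) and upper quartile, other pseudocounts, count minimums, fold limits and row handling, and subtraction of neighbours.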

Additional observations from a re-analysis of the deposited data

How the results depend on the processing

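No paired analysis was possible because each line has 1 library, and for the same reason no replicate could be left out. The 3 other scalings moved the log2 ratio of any of the 9 genes by at most 0.044. In alternatives added after the data were seen, 5 genes had an interval below 1 under each of these scalings and with the highest row of a repeated symbol. The highest row could not differ from the main value, since each of the 9 genes had counts on 1 row. The number above 1 was 2 with the median of ratios and the highest row, and 3 with total counts and the upper quartile, where ULBP2 joined with lower ends of 1.03 and 1.02. After subtraction of chromosomal neighbours, CD276 stood at -0.0867, PVR at -0.0736, NT5E at -0.545 and MICA at -0.270, each outside its counting interval, and the cause was not tested. In all, 159 of 188 alternative values stayed within the limits set, and 4 of 54 for the ratios of the 9 genes did not. The highest-row values among those that stayed were the same by construction.

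With a 1.5-fold limit, 13.7% of all measured genes were called higher and 11.9% lower. Of the 9 genes, 0 were called higher and 1 lower. The other B7, nectin and checkpoint ligands had 2 of 13 measured genes higher and 3 lower. The other NK cell ligands had 1 of 10 higher and 1 lower, and adenosine handling 2 of 9 higher and 1 lower. The PD-L1 regulators had 5 of 28 higher and 0 lower, and the CD47 list 1 of 10 higher and 4 lower. The NKG2D induction and shedding list had 3 of 15 higher and 3 lower. A 4-fold limit left 0 of the B7 and checkpoint ligands called higher, 0 of the NK ligands lower, 0 of the CD47 list and of adenosine handling in either direction, and 0 of the shedding list lower. With a minimum of 100 counts, 1 B7 or checkpoint ligand was higher, and 0 NK ligands were lower, 0 PD-L1 regulators higher, 0 of the CD47 list lower, and 0 of adenosine handling and of the shedding list higher. Without a minimum, 4 B7 or checkpoint ligands were higher. Scaling by total counts or by the upper quartile gave 1 NK ligand higher (CLEC2B) and 0 shedding genes lower (TIMP3). Looser and stricter limits change such counts by construction. Shares over all measured genes were not counted for the 4-fold limit, the other minimums or the other scalings, so those counts have no background here. Depth limits PDCD1LG2, whose interval held equal expression under all 4 scalings, and ULBP2, whose interval did so under TMM and the median of ratios.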
